A study of Mus musculus with 39 samples.

Results

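Old perforin-deficient mice were given ABT-737 or its vehicle, and their lungs were compared gene by gene in 6 of the 39 libraries of the series. The members were the 3 lung libraries titled as ABT-737 and the 3 titled as vehicle, each numbered 3, 4 and 5. Every mouse was C57BL/6 and Prf1-/-, and the study describes the mice of this treatment as males. The old mice were 20 months of age. From the age of 18 months they had received ABT-737 at 25 mg/kg, or a vehicle made with DMSO, by intraperitoneal injection on 2 consecutive days in each of 2 months. The treatment labels of ABT-737 replicates 4 and 5 name ABT-738 and ABT-739, and both were counted as ABT-737, the drug that their titles give. Lungs of 4 untreated Prf1-/- mice of 3 months entered the fits for their share in the filter, the scaling and the estimate of spread, and their values are given for reference. No mouse with perforin was among these libraries, so the comparison covers the drug in perforin-deficient mice alone. The lungs were perfused and taken whole, and the 3′ ends of polyadenylated transcripts were counted.

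ABT-737 occupies the groove of the anti-apoptotic proteins BCL-2, BCL-xL and BCL-w that holds the BH3 domain of pro-apoptotic partners, and it binds MCL-1 poorly. Cells that depend on BCL-2 or BCL-xL die when the groove is filled, and lymphocytes, platelets and senescent cells are known examples. Perforin is the pore protein of cytotoxic T cells and NK cells. Activated T cells and NK cells also secrete interferon gamma, which induces guanylate-binding proteins, immunity-related GTPases, the MHC class I machinery and the chemokines Cxcl9 and Cxcl10.

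Of 24537 genes in the count table, 11949 had enough reads to be tested. Total counts ran from 1379296 to 2600092 in the vehicle lungs, from 1046508 to 1988877 in the ABT-737 lungs and from 1506934 to 2033866 in the young lungs. Levels are given in CPM, read counts normalised to the scaled size of the library, and 3 counts corresponded to 1.12 to 3.16 CPM, depending on the library. Surfactant protein C (Sftpc) stood between 11299 and 18595 CPM and the club cell gene Scgb1a1 between 7221 and 28667 CPM in the 10 lungs, while the kidney gene Umod reached at most 3.80 CPM and the liver gene Alb 15.1 CPM. The old lungs varied far more than the young ones. The biological coefficient of variation was 36.8% among the vehicle lungs, 41.6% among the ABT-737 lungs and 17.2% among the young lungs. Vehicle replicate 5 had the highest summed levels of T cell, cytotoxic lymphocyte, chemokine, Fc receptor and interstitial macrophage genes among the old lungs, though not of guanylate-binding, interferon-stimulated or B cell genes, and alveolar type 1, airway and vascular genes were low in it. ABT-737 replicate 4 held 10866 CPM of adipocyte transcripts against 389 to 813 CPM in the other old lungs, and ABT-737 replicates 3 and 5 stood apart by transcript length. Each of these is given again beside the results it touches.

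The first question was which genes differed between the drug and its vehicle. Without a term for the replicate number no gene passed (edgeR's quasi-likelihood test, smallest Benjamini-Hochberg adjusted p = 0.0847), although 1137 genes were higher (9.52% of those tested) and 782 lower (6.54%) at an unadjusted p under 0.05. DESeq2 called 301 genes in the same design. When 1 gene was kept of each set with identical counts, the smallest adjusted p of edgeR's quasi-likelihood test without the block was 0.134. Deviations from the group means correlated between lungs of the same number (r = 0.18, 0.30 and 0.43 for numbers 3, 4 and 5). Vehicle replicate 4 correlated about as strongly with ABT-737 replicate 3 (r = 0.30), and the labels do not give a pairing. Taking the number as pairing the lungs is thus an assumption, on which the calls below rest. With the number as a block, 874 genes passed, which is 7.31% of those tested. Among them 456 genes were higher with ABT-737 (3.82% of those tested) and 418 were lower (3.5%), and in 789 of the 874 the difference had the same sign within all 3 numbers. The ranges of the groups did not overlap for 402 of the 874 genes. Over all genes tested, ABT-737 lay above vehicle without overlap in 5.18% and below in 6.63%. The 789 and the 402 are counts of genes already selected by the fit with the block, so they are no separate support for it. The young lungs, which have the smaller spread, add to that fit. With the block and the 6 old lungs alone, 72 of 11519 genes passed (0.625%), 20 higher and 52 lower, and all 72 were among the 874. Below, rose and fell are used of genes that passed with the block, and folds are log2 fold changes of that fit. The value after ± is a standard error derived from the test, the size of the fold over the square root of its F statistic. Adjusted p-values are those of the quasi-likelihood test in edgeR, adjusted over all genes tested by the method of Benjamini and Hochberg. Each count of a list below is to be read beside the 3.82% of all genes tested that rose and the 3.5% that fell. The count depended on single pairs, being 182 genes without replicate 3, 2384 without replicate 4 and 133 without replicate 5.

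**Figure D1:**
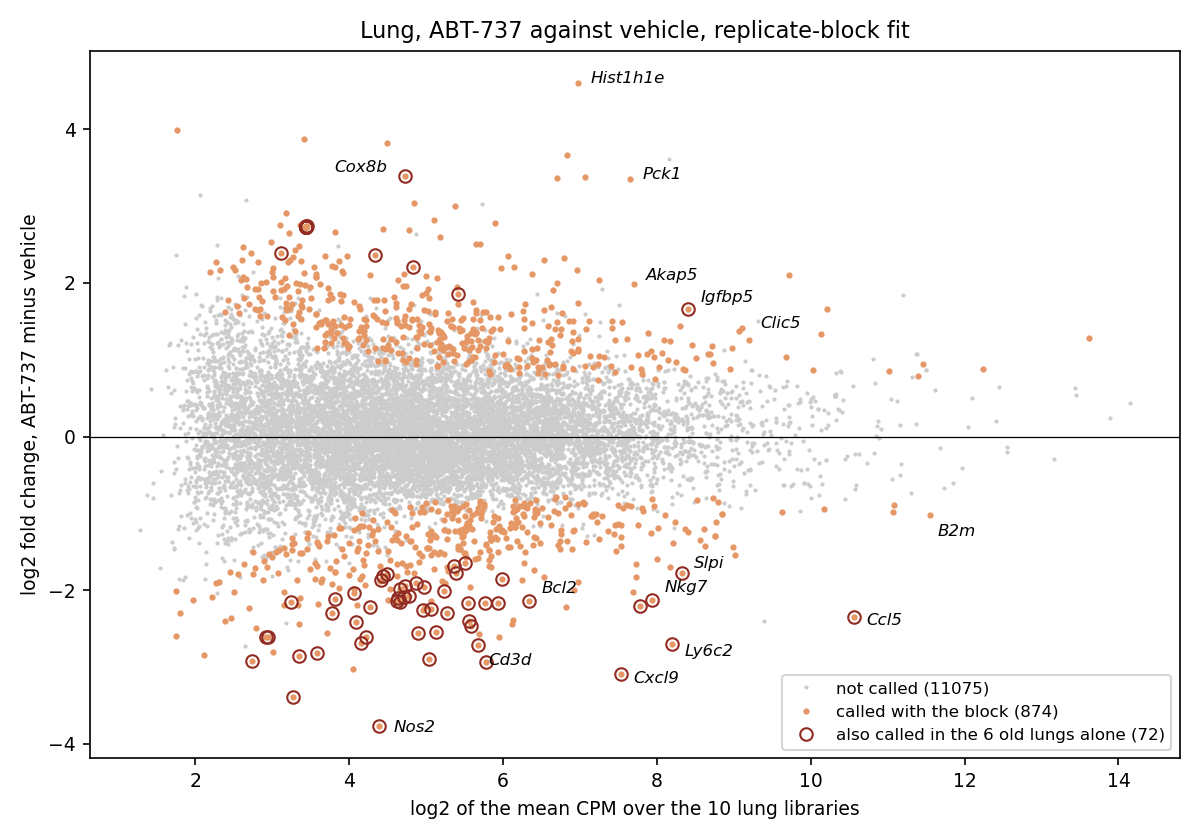
Log2 fold change between ABT-737 and vehicle lungs in the fit with the replicate block (vertical axis) against the log2 of the mean CPM over the 10 lung libraries (horizontal axis), 1 point per gene tested. The 874 genes called are orange and the 72 also called in the 6 old lungs alone are ringed, of which 52 lie below 0 and 20 above it.

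Lymphocyte genes and genes of the interferon gamma response were prominent among those that fell. Lists of T cell, cytotoxic lymphocyte, guanylate-binding, interferon-stimulated, MHC class I, chemokine and cytokine genes together held 150 tested genes. Of these, 71 fell and 0 rose with the block, which is 71 of the 418 genes that fell, where 3.5% of all genes tested fell. The lists were chosen with earlier results of these data known. In the 6 old lungs alone 21 of the 150 genes passed, all lower, out of 52 (0.451% of all genes tested there). Of these 21 genes, 16 belonged to the T cell or cytotoxic lists. Among the genes that rose were 7 of 23 alveolar type 1, 5 of 23 smooth muscle, 6 of 30 cilium and 7 of 15 adipocyte genes. Over all genes tested, 3.82% rose. In the 6 old lungs alone 0 genes of these lists passed. Long transcripts were frequent among the genes that rose. The 15 highest log2 fold changes among called genes with the same sign in every number belonged to protocadherin alpha genes, fat genes such as Retn and Car3, and single genes of other kinds.

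Prf1, the gene that all these mice lack, had a few reads in every library. It stood at 9.39, 6.86 and 10.1 CPM in vehicle replicates 3, 4 and 5, at 17.4, 1.05 and 30.4 CPM in ABT-737 replicates 3, 4 and 5 and between 7.80 and 10.8 CPM in the young lungs. It did not pass (adjusted p = 0.371 with the block). The sources used here do not give the deleted part of the gene, and reads from its 3′ end may lie outside that part, so these values check neither the genotype nor the labels.

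T cell genes were lower in the ABT-737 lungs. Of 29 T cell genes tested, 23 fell and 0 rose with the block, against 3.5% of all genes tested that fell. Their median log2 fold change was −1.62 without the block, where the median of all genes was 0.04, and within numbers 3, 4 and 5 it was −1.55, −1.38 and −1.81. In the 6 old lungs alone 8 of the 29 passed, all lower, against 0.451% of all genes. In bulk tissue, fewer T cells and less RNA per T cell cannot be told apart. The median moved to −0.79 without vehicle replicate 5, and to −2.25 without ABT-737 replicate 5.

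Chains of the T cell receptor complex were among the genes that fell. Cd3d (chr9:44981786-44987052), a CD3 chain, stood at 64.4, 49.3 and 310.5 CPM in vehicle replicates 3, 4 and 5 and at 3.86, 17.9 and 42.5 CPM in the ABT-737 replicates of the same numbers. Every ABT-737 lung was below every vehicle lung, and vehicle replicate 5 was far above the others. Cd3d fell by 2.71 ± 0.37 on the log2 scale (adjusted p = 0.00236, and 0.0362 in the 6 old lungs alone), and the young lungs had 4.34 to 8.32 CPM. Cd247, the zeta chain, measured 30.9, 43.7 and 162 CPM with vehicle and 9.02, 9.48 and 26.8 CPM with ABT-737, again without overlap, and fell by 2.26 ± 0.28 (adjusted p = 0.00174). Cd3e fell by 1.51 ± 0.28, with groups that overlapped because ABT-737 replicate 5, at 53.7 CPM, lay level with vehicle replicate 3.

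Both chains of the CD8 coreceptor, which marks cytotoxic T cells, fell more than Cd4 in point estimate. Cd8a was at 52.99, 42.03 and 188 CPM in the vehicle lungs and at 9.02, 6.32 and 33.6 CPM in the ABT-737 lungs, and it fell by 2.55 ± 0.35 (adjusted p = 0.00236). Cd8b1 was at 62.4, 66.5 and 252 CPM and 19.97, 11.6 and 29.1 CPM in the same order and fell by 2.47 ± 0.31 (adjusted p = 0.00174). In both genes the 3 ABT-737 lungs lay below the 3 vehicle lungs. Cd4, the coreceptor of helper T cells, was at 30.9, 91.3 and 68.8 CPM with vehicle and 14.8, 52.7 and 40.7 CPM with ABT-737. It fell by 0.85 ± 0.24 (adjusted p = 0.0443), but did not pass in the 6 old lungs alone (adjusted p = 0.223). Whether the CD8 genes differed from Cd4 in their response was not tested.

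Signalling genes downstream of the receptor fell with it. The kinases Lck and Zap70 (log2 fold changes −1.33 ± 0.26 and −1.95 ± 0.35) and the adaptor Lat (−1.65 ± 0.28) fell, each without overlap between the groups. The costimulatory receptor Cd27 was at 42.3, 45.5 and 161 CPM with vehicle and 3.22, 15.8 and 38.03 CPM with ABT-737 and fell by 2.25 ± 0.33 (adjusted p = 0.00353). Tcf7, the transcription factor of naive and memory T cells, fell by 1.72 ± 0.33, and the surface protein Thy1 fell by 1.83 ± 0.38. Pdcd1, the inhibitory receptor PD-1, was at 21.5, 26.2 and 32.2 CPM in the vehicle lungs, at 0.644, 5.27 and 12.97 CPM in the ABT-737 lungs and at no more than 1.04 CPM in the young lungs. It fell by 2.19 ± 0.47 (adjusted p = 0.0156), and ABT-737 replicate 3 held a single read of it. Themis, a regulator of T cell selection, Ubash3a, which damps receptor signalling, and the early activation marker Cd69 had few reads and were among the 15 lowest of the called genes with the same sign in every number, with log2 fold changes of −2.61 ± 0.46, −2.92 ± 0.63 and −2.81 ± 0.57.

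**Figure D2:**
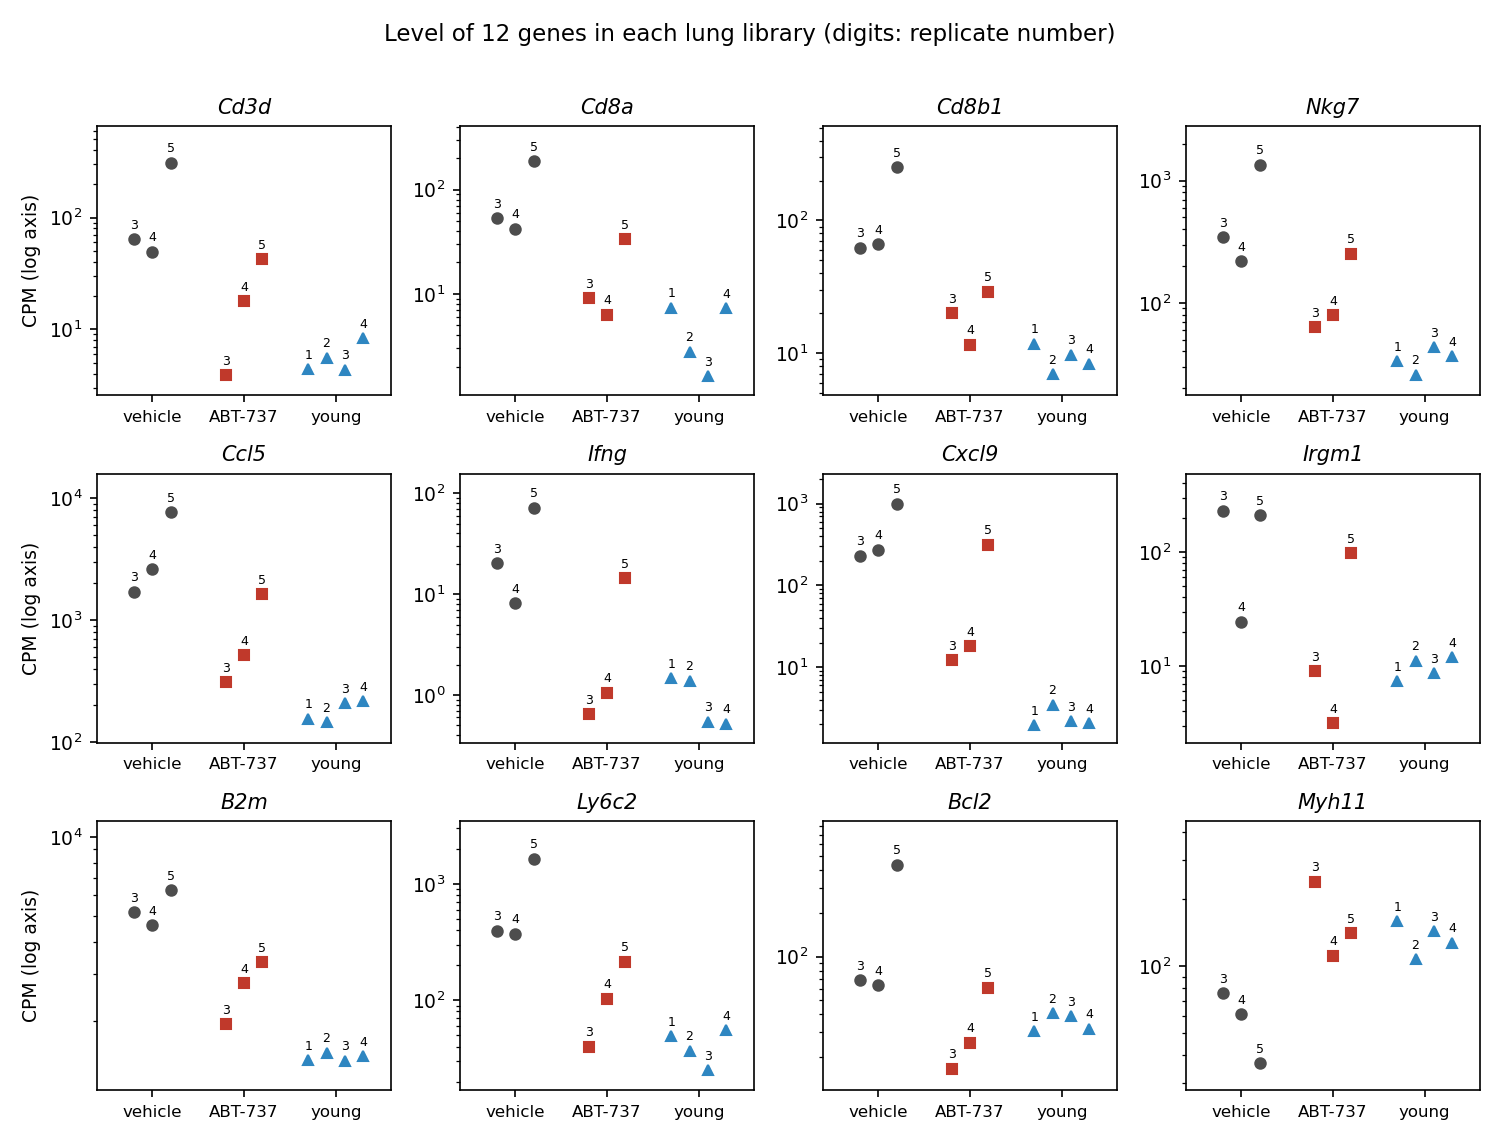
CPM of 12 genes in each lung library on a log axis, with vehicle as circles, ABT-737 as squares and young as triangles, and the replicate number beside each point. In Cd3d, Cd8a, Cd8b1, Ccl5, B2m, Ly6c2 and Bcl2 every ABT-737 lung lies below every vehicle lung, in Myh11 every one lies above, and Nkg7, Ifng, Cxcl9 and Irgm1 overlap through replicate 5.

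Genes of cytotoxic lymphocytes were lower too, in lungs whose cytotoxic cells lack perforin. Of 18 tested, 12 fell and 0 rose with the block, and 8 of them passed in the 6 old lungs alone. The median log2 fold change was −2.28, and −1.81, −1.18 and −2.28 within numbers 3, 4 and 5. Without vehicle replicate 5 the median was −0.97. Without ABT-737 replicate 5 it was −3.10.

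Ccl5 (chr11:83525779-83530518), a chemokine stored by effector T cells and NK cells, was the most abundant of them. It stood at 1712, 2601 and 7619 CPM in vehicle replicates 3, 4 and 5 and at 310.4, 514 and 1620.04 CPM in the ABT-737 lungs. The highest ABT-737 lung was below the lowest vehicle lung, and the young lungs had 145 to 215 CPM. Ccl5 fell by 2.34 ± 0.25 on the log2 scale and had the smallest adjusted p of all genes with the block (adjusted p = 0.00127). Granzyme B (Gzmb), the protease that perforin delivers into target cells, was at 79.1, 14.6 and 180.3 CPM with vehicle and 1.93, 5.27 and 34.9 CPM with ABT-737 and fell by 2.8996 ± 0.46 (adjusted p = 0.00524). Its groups overlapped, since ABT-737 replicate 5 lay above vehicle replicate 4. Nkg7, a protein of cytotoxic granules, was at 346, 219.6 and 1347 CPM and 63.1, 79.03 and 252 CPM in the same order and fell by 2.13 ± 0.27 (adjusted p = 0.00191).

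The transcription factors Eomes and Tbx21, which set the effector programme of CD8 T cells and NK cells, had log2 fold changes of −2.23 ± 0.42 and −2.41 ± 0.36, and both fell. Il2rb, the beta chain of the receptors for interleukins 2 and 15, was at 35.5, 33.9 and 315 CPM in the vehicle lungs and 8.37, 16.9 and 28.2 CPM in the ABT-737 lungs and fell by 2.399 ± 0.40. Klrk1, the activating receptor NKG2D, fell by 2.13 ± 0.48 and the lymphocyte cathepsin Ctsw fell by 2.44 ± 0.46, without overlap in either. Granzyme A (Gzma), by contrast, stood at 80.5, 12.9 and 9.73 CPM with vehicle and 8.37, 7.38 and 13.4 CPM with ABT-737 and did not pass (adjusted p = 0.202). Vehicle replicate 3 alone was high for Gzma.

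**Figure D3:**
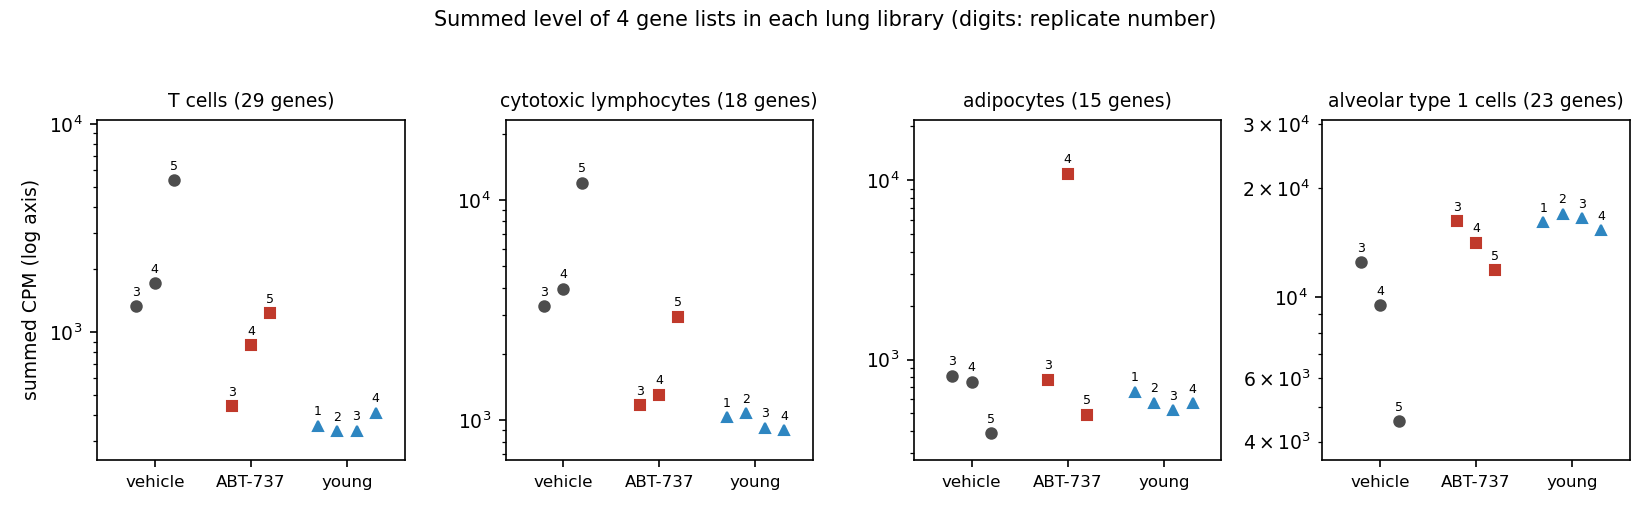
Summed CPM of 4 gene lists in each lung library on a log axis, with the replicate number beside each point. The T cell sum runs from 1330 to 5370 CPM with vehicle and from 439 to 1234 CPM with ABT-737, while the adipocyte sum of ABT-737 replicate 4 (10866 CPM) stands apart.

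Interferon gamma itself and its target genes were lower. Ifng stood at 20.1, 8.15 and 71.4 CPM in vehicle replicates 3, 4 and 5 and at 0.644, 1.05 and 14.3 CPM in the ABT-737 lungs, where replicates 3 and 4 held 1 read each. ABT-737 replicate 5 lay above vehicle replicate 4, so the groups overlapped. Ifng fell by 2.82 ± 0.43 on the log2 scale (adjusted p = 0.00444, and 0.0362 in the 6 old lungs alone). Of 16 guanylate-binding proteins and immunity-related GTPases tested, which attack the vacuoles of intracellular pathogens, 9 fell and 0 rose with the block, and 0 passed in the 6 old lungs alone. At an unadjusted p under 0.05 without the block 6 were lower and 0 higher. Their median log2 fold change was −1.09, and it differed between the pairs, at −3.14 in number 3, −1.29 in number 4 and −0.27 in number 5. For 0 of the 16 did the groups separate, where ABT-737 lay below vehicle without overlap in 6.63% of all genes tested. Leaving out ABT-737 replicate 5 gave a median of −2.64, and leaving out replicate 3 of that group −0.72.

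The sequences before the starts of 5 of these target genes are printed to show the letters that interferon-activated factors are known to read. They are the 250 bases before the start in RefSeq (GRCm38.p6), 5′ to 3′ on the strand of the gene. Capitals mark the core of the interferon-stimulated response element (ISRE), searched as 2 copies of GAAA with any 2 bases between them, on both strands. Each copy reads TTTC on the other strand. The Irgm1 window is chr11:48871421-48871670 (minus strand), with a start 74 bases from that of the count table, and the Igtp window is chr11:58199306-58199555 (plus strand). Gbp2 is at chr3:142620413-142620662 (plus strand), Cxcl10 at chr5:92348890-92349139 (minus strand) and B2m at chr2:122147437-122147686 (plus strand).
Irgm1: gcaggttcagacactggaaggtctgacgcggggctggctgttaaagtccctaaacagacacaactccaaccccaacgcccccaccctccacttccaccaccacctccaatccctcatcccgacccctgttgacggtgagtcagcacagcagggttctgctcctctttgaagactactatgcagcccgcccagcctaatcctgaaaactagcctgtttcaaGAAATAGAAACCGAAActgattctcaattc
Igtp: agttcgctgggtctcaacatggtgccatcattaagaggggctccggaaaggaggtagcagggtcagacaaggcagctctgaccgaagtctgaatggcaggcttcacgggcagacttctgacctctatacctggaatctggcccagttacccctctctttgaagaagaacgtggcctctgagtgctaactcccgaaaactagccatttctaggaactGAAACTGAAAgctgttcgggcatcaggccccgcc
Gbp2: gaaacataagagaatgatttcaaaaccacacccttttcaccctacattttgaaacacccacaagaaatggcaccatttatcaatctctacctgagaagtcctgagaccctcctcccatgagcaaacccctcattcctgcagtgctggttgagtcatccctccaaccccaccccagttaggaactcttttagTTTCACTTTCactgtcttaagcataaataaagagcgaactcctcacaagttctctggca
Cxcl10: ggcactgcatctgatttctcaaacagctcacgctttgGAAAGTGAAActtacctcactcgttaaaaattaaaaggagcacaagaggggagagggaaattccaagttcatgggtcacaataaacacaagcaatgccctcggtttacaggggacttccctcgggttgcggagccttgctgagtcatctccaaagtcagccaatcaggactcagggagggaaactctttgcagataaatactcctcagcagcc
B2m: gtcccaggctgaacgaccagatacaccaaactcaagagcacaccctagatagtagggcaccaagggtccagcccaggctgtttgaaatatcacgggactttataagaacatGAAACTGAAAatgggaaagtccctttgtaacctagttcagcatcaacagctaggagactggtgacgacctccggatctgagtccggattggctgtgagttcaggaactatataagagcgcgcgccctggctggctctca

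In Irgm1 a pair of overlapping matches began 30 and 24 bases before the start, in Igtp 1 match began 34 bases before it, and in Gbp2 the match was on the other strand, from 59 bases before it. The matches of Cxcl10 and B2m lay farther off, from 213 and 139 bases before the start. Windows of 300 bases that also hold the first 50 transcribed bases were searched, leaving out genes of chromosome 18. Of 9188 other tested genes with a RefSeq window, 297 had a match (3.23%). Of the guanylate-binding and GTPase genes, 9 of the 10 with a window in this search had a match, and 6 more had no window in it. The share was 12 of 20 for interferon-stimulated genes, 4 of 15 for MHC class I genes, 2 of 19 for chemokine ligands, 3 of 14 for cytotoxic lymphocyte genes and 0 of 17 for T cell genes. The 5 genes printed were chosen because they have a match, and Cxcl9, Gbp3, Tap1 and Psmb9 have none in their windows. Matches occurred in 31 of 314 genes that fell (9.87%) and in 7 of 329 that rose (2.13%). The gamma-activated sequence TTCNNNGAA, which reads the same on both strands, was present in 6.85% of all windows, in 14% of those of genes that fell and in 3.04% of those of genes that rose. These matches describe letters and were not tested for use.

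Irgm1 (chr11:48865249-48871346), a GTPase that restrains the other GTPases of the family, was at 231, 24.4 and 210.2 CPM with vehicle and 9.02, 3.16 and 97.98 CPM with ABT-737, and at 7.36 to 11.96 CPM in the young lungs. Vehicle replicate 4 was low among the vehicle lungs and ABT-737 replicate 5 was high among the treated ones, so the groups overlapped although ABT-737 was lower within every number. Irgm1 fell by 2.61 ± 0.51 (adjusted p = 0.00943). Igtp was at 673, 217 and 555 CPM and 40.6, 86.4 and 282 CPM in the same order and fell by 2.02 ± 0.46 (adjusted p = 0.0194). Gbp2 was at 643, 160.4 and 579 CPM and 51.5, 103 and 302 CPM and fell by 1.66 ± 0.44, and Gbp3 fell by 1.83 ± 0.53. Reads of such near-identical genes can be divided between copies, which makes the single values less certain.

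The chemokines that interferon gamma induces fell. Cxcl9 (chr5:92321331-92328079), which recruits T cells through CXCR3, stood at 231, 273 and 996 CPM in vehicle replicates 3, 4 and 5 and at 12.2, 17.9 and 316 CPM in the ABT-737 lungs. ABT-737 replicate 5 lay above 2 of the vehicle lungs and the other ABT-737 lungs far below all of them. The young lungs had 1.96 to 3.48 CPM. Cxcl9 fell by 3.09 ± 0.41 (adjusted p = 0.00233, and 0.0362 in the 6 old lungs alone). Cxcl10 was at 93.2, 14.6 and 301 CPM and 1.93, 5.27 and 90.8 CPM and fell by 2.58 ± 0.48 (adjusted p = 0.00764).

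Of 27 chemokine ligands tested, 7 fell and 0 rose, and their median log2 fold change was −0.29, or −0.82 when ABT-737 replicate 4 was left out and −0.05 when vehicle replicate 5 was. Ccl3 and Ccl4, which activated lymphocytes and macrophages release, fell, with log2 fold changes of −2.69 ± 0.47 and −2.93 ± 0.52. Ccl4 was at 78.5, 74.6 and 269 CPM in the vehicle lungs and 0.644, 4.22 and 102 CPM in the ABT-737 lungs, so that replicate 5 again overlapped. Xcl1, which draws cross-presenting dendritic cells, fell by 2.44 ± 0.51 without overlap. Ccl2, the monocyte chemokine, was at 16.1, 2.14 and 65.5 CPM with vehicle and 0.644, 5.27 and 12.5 CPM with ABT-737 and fell by 2.11 ± 0.60 (adjusted p = 0.046), although it was higher with ABT-737 within number 4.

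Among genes called with the block that had the same sign in every number, 2 effector enzymes of the interferon response had the lowest log2 fold changes. Nos2, the inducible nitric oxide synthase, was at 13.4, 3.002 and 164 CPM with vehicle and 3.86, 0 and 6.71 CPM with ABT-737 and fell by 3.77 ± 0.54 (adjusted p = 0.00297). Ido1, which degrades tryptophan, was at 52.3, 2.57 and 28.4 CPM and 0.644, 0 and 6.26 CPM and fell by 3.39 ± 0.70 (adjusted p = 0.0128). Vehicle replicate 4 was as low as the treated lungs in both genes, and most of the Nos2 reads were in vehicle replicate 5.

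Antiviral interferon-stimulated genes were lower too. Of 28 tested, 8 fell and 0 rose, where 3.5% of all genes tested fell. In 10 the groups did not overlap, ABT-737 being below, which held for 6.63% of all genes tested. The median log2 fold change was −0.80, with −1.14, −0.92 and −0.08 within numbers 3, 4 and 5, and it was −0.53 without ABT-737 replicate 3. Irf7, the master regulator of the interferon alpha response, was at 133, 185 and 181 CPM with vehicle and 34.8, 64.3 and 99.8 CPM with ABT-737, and it fell by 1.41 ± 0.26 (adjusted p = 0.00793). The ubiquitin-like Isg15 fell by 1.45 ± 0.40. Oas3, a sensor of double-stranded RNA, fell by 2.16 ± 0.33 (adjusted p = 0.00476), both without overlap. Among interleukins and TNF family genes, 5 of 18 fell and 0 rose, namely Ifng, Il1b, Tnf, Ltb and Tnfsf9. Tnf was at 8.72, 5.15 and 28.8 CPM and 2.58, 0 and 5.37 CPM and fell by 2.36 ± 0.47 (adjusted p = 0.0105), and Il1b fell by 1.31 ± 0.30.

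Genes of MHC class I presentation were lower as well. Of 17 tested genes of class I and the immunoproteasome, 10 fell and 0 rose, where 3.5% of all genes tested fell. In 8 the groups did not overlap, ABT-737 being below, as in 6.63% of all genes tested. The median log2 fold change was −1.08, and −1.70, −1.03 and −0.91 within numbers 3, 4 and 5, with a range from −1.66 to −0.81 as single libraries were left out. B2m (chr2:122147687-122153082), the light chain of every class I molecule, stood at 5175, 4611 and 6266 CPM in the vehicle lungs and 1933, 2776 and 3335 CPM in the ABT-737 lungs. The ABT-737 lungs lay between the vehicle lungs and the young ones, which had 1405 to 1511 CPM. B2m fell by 1.02 ± 0.23 on the log2 scale (adjusted p = 0.0202), and its adjusted p in the 6 old lungs alone was 0.22.

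The transporter genes Tap1 and Tap2, which bring peptides to class I, fell without overlap, with log2 fold changes of −1.59 ± 0.29 and −1.47 ± 0.22. The immunoproteasome subunits Psmb8 and Psmb9 fell as well (−1.42 ± 0.32 and −1.89 ± 0.44). Nlrc5, the transactivator of class I genes, was at 53.7, 64.8 and 151 CPM with vehicle and 9.66, 25.3 and 55.5 CPM with ABT-737 and fell by 1.69 ± 0.33. It was the 1 gene of the list to pass in the 6 old lungs alone (adjusted p = 0.0484). H2-K1 fell by 0.98 ± 0.27. H2-Q7 fell by 1.29 ± 0.23, and its counts were identical with those of H2-Q9, so the reads of this pair cannot be told apart.

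MHC class II genes had a median log2 fold change of −0.67, or −0.37 without ABT-737 replicate 3, but few passed. Of 11 tested, H2-DMa and Ctss fell and 0 rose, and all 11 had a negative log2 fold change, where 47.2% of all genes tested did. H2-DMa, which edits the peptides of class II, fell by 1.21 ± 0.25, and cathepsin S (Ctss), which trims the invariant chain, fell by 1.43 ± 0.36. The invariant chain Cd74 was at 4399, 5100.4 and 6496 CPM with vehicle and 2189, 4858 and 3374 CPM with ABT-737 and did not pass (adjusted p = 0.131). Number 4 showed little difference in it.

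**Figure D4:**
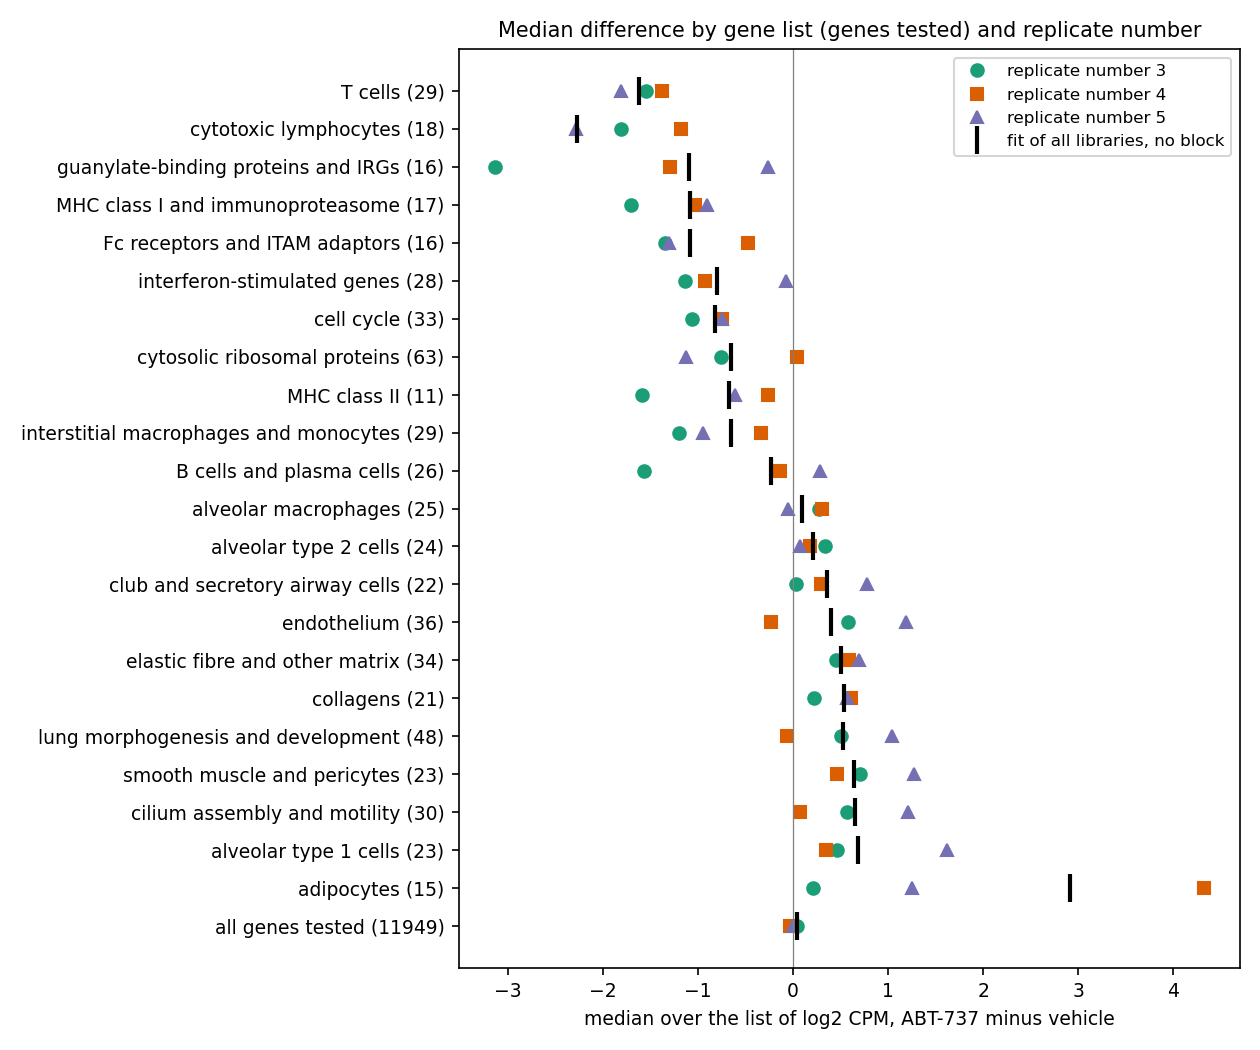
Median over each gene list of the log2 difference between ABT-737 and vehicle, within replicate numbers 3, 4 and 5 (coloured points) and in the fit without the block (black bars), with the number of genes tested in brackets. T cell, cytotoxic and MHC class I medians are negative in all 3 numbers, those of smooth muscle and alveolar type 1 cells are positive in all 3, and the adipocyte median is 2.91 in the fit and 4.33 within number 4.

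Monocyte and macrophage genes fell in part. Of 29 genes of interstitial macrophages and monocytes, 9 fell and 0 rose, with a median log2 fold change of −0.65 that was −0.21 when vehicle replicate 5 was left out and −1.11 when ABT-737 replicate 5 was. Ly6c2 (chr15:75108161-75111949), found on inflammatory monocytes and on activated CD8 T cells, stood at 396, 371 and 1640.2 CPM in vehicle replicates 3, 4 and 5 and at 39.9, 103 and 213 CPM in the ABT-737 lungs. The groups were apart, and the young lungs had 24.96 to 55.1 CPM. Ly6c2 fell by 2.6996 ± 0.33 (adjusted p = 0.00174), with the reserve that it has a near-identical neighbour, Ly6c1. Plac8, also of monocytes and lymphocytes, was at 117, 112 and 149.99 CPM and 9.02, 25.3 and 66.7 CPM and fell by 2.17 ± 0.36 (adjusted p = 0.00524).

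The complement subunits C1qb and C1qc, made by tissue macrophages, fell, with log2 fold changes of −0.98 ± 0.28 and −1.35 ± 0.33. The macrophage marker Aif1 fell by 1.46 ± 0.30. Among 16 Fc receptors and their ITAM adaptors 7 fell and 0 rose, all 16 had a negative log2 fold change, and the median was −1.09, or −0.44 without vehicle replicate 5. Fcgr4, an activating receptor for IgG, was at 204, 136 and 544 CPM with vehicle and 16.7, 51.6 and 219 CPM with ABT-737 and fell by 1.997 ± 0.35 (adjusted p = 0.00631). The high-affinity receptor Fcgr1 fell by 1.22 ± 0.25. Hcst, the adaptor of NKG2D, fell by 1.87 ± 0.35 without overlap. Tlr12, a receptor for parasite profilin, was at 12.1, 16.3 and 57.98 CPM and 1.93, 2.11 and 14.3 CPM, and it fell by 2.29 ± 0.40 as the 1 gene of 11 in the toll-like receptor list to pass.

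Alveolar macrophage genes did not share the fall. Of 25 tested, Cidec rose, 0 fell and the median log2 fold change was 0.09. Cidec is also a fat cell gene and was high in ABT-737 replicate 4. Dendritic cell genes went both ways, with 5 of 19 lower and 2 higher. Batf3, the factor of cross-presenting dendritic cells, was at 37.6, 42.9 and 43.4 CPM with vehicle and 10.3, 8.43 and 26.4 CPM with ABT-737 and fell by 1.496 ± 0.34 without overlap, and Ccr7, which guides cells to lymph nodes, fell by 1.36 ± 0.33. Mgl2, a lectin of type 2 dendritic cells, rose by 1.64 ± 0.31 (adjusted p = 0.00912) from 13.4, 17.6 and 2.99 CPM to 37.4, 57.96 and 10.3 CPM in replicates 3, 4 and 5. The lectin Cd209a rose by 1.92 ± 0.51 from few reads.

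B cell genes differed between the pairs. Of 26 tested, Cd22, Cd72 and Pou2f2 fell and 0 rose. The median log2 fold change was −0.23, from −1.57 in number 3 to 0.28 in number 5, and it was 0.17 without ABT-737 replicate 3. Cd22, an inhibitory receptor of B cells, fell by 0.94 ± 0.25, and Cd72 fell by 1.703 ± 0.43. Of 12 neutrophil genes 2 fell and 0 rose.

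Bcl2, the gene of a protein that the drug binds, fell with the lymphocyte genes. Bcl2 (chr1:106538176-106714290) stood at 68.4, 63.04 and 432 CPM in vehicle replicates 3, 4 and 5, at 16.7, 25.3 and 60.8 CPM in the ABT-737 lungs and at 30.4, 40.3, 38.5 and 31.7 CPM in the young lungs. The groups did not overlap, and vehicle replicate 5 was again far above the rest. It fell by 2.14 ± 0.29 (adjusted p = 0.00236, and 0.0362 in the 6 old lungs alone), and was the 1 of 7 anti-apoptotic family genes tested that passed. Bcl2l1, which encodes BCL-xL, was at 113, 175 and 102 CPM with vehicle and 214, 256 and 155 CPM with ABT-737 and did not pass (adjusted p = 0.112). Bcl2l2, which encodes BCL-w, was at 54.3, 22.3 and 28.4 CPM and 25.1, 26.3 and 50.1 CPM, and Mcl1 at 309.9, 389 and 334 CPM and 377, 260.3 and 358 CPM, with adjusted p-values of 0.993 and 0.9. Their groups overlapped.

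Of 11 pro-apoptotic family genes, Bax fell and 0 rose. Bax, an effector that permeabilises mitochondria, was at 142, 129 and 204 CPM with vehicle and 75.4, 86.4 and 93.5 CPM with ABT-737, without overlap. It fell by 0.88 ± 0.22 (adjusted p = 0.0302). Its adjusted p in the 6 old lungs alone was 0.204.

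Genes of senescence gave calls in both directions. Cdkn2a, the p16 gene, had too few reads to be tested, with 4, 9 and 18 counts in vehicle replicates 3, 4 and 5, 1, 1 and 10 counts in the ABT-737 lungs and 0, 0, 1 and 0 counts in the young lungs. Within each number the ABT-737 lung had fewer counts than the vehicle lung, but these are small counts from libraries of unequal depth. Cdkn1a, the p21 gene, was at 496, 1509 and 254 CPM with vehicle and 823, 1015 and 324 CPM with ABT-737, and Cdkn2b, the p15 gene, at 35.5, 15.01 and 19.8 CPM and 30.3, 15.8 and 36.2 CPM. Neither passed (adjusted p = 0.743 and 0.647). Of 13 senescence regulators 1 rose and 1 fell, where 3.82% of all genes tested rose and 3.5% fell. In the 6 old lungs alone 0 of the 13 passed. Cdkn1c, the p57 gene, rose by 1.46 ± 0.30 without overlap (adjusted p = 0.0114), and the stress cytokine Gdf15 fell by 1.53 ± 0.45 (adjusted p = 0.049).

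Secreted factors of senescent cells, the SASP, held more genes that fell than genes that rose. Of 41 tested, 7 fell and 2 rose, where 3.5% of all genes tested fell and 3.82% rose. The median log2 fold change was −0.12, beside 0.04 for all genes, and 0.03 without vehicle replicate 5. The 7 that fell were Ccl2, Ccl3, Ccl5, Cxcl10, Ifng, Il1b and Tnfrsf1b, several of which are also lymphocyte or macrophage genes. Igfbp5 (chr1:72858065-72874865), a binding protein for insulin-like growth factors, rose. It was at 184, 246 and 72.9 CPM with vehicle, 539.7, 719.7 and 273 CPM with ABT-737 and 283 to 425 CPM in the young lungs, and every ABT-737 lung was above every vehicle lung. The rise was 1.67 ± 0.24 (adjusted p = 0.00297, and 0.0442 in the 6 old lungs alone), and Igfbp6 rose by 1.18 ± 0.23. Of other cytokines that the study names, Il1rn was at 10.1, 7.29 and 24.3 CPM and 9.66, 7.38 and 11.2 CPM and did not pass (adjusted p = 0.41). Il6 had 1, 1 and 0 counts with vehicle and 0 in every ABT-737 lung, and Il10 had 4, 1 and 13 counts against 1, 0 and 11, and neither was tested.

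Of 10 acute-phase and metallothionein genes tested, the secreted protease inhibitor Slpi was the 1 that passed. Slpi (chr2:164354070-164356507) was at 519.8, 1458 and 350.5 CPM in vehicle replicates 3, 4 and 5, at 149, 318 and 141 CPM in the ABT-737 lungs and at 59.7 to 72.3 CPM in the young lungs. The groups did not overlap, and the highest vehicle lung was replicate 4. Slpi fell by 1.77 ± 0.24 (adjusted p = 0.00236, and 0.043 in the 6 old lungs alone). Serum amyloid Saa3 was at 129, 67.8 and 6129.9 CPM with vehicle and 18.7, 146 and 189.7 CPM with ABT-737, with nearly all of it in vehicle replicate 5, and did not pass with the block (adjusted p = 0.11). Outside this list, Socs3, a feedback inhibitor of cytokine signals, fell by 1.44 ± 0.26, and Hmox1, which degrades haem, fell by 1.12 ± 0.29.

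Cell cycle genes were lower in the main. Of 33 tested, 28 had a negative log2 fold change without the block and 5 a positive one. With the block 9 fell and 0 rose, where 3.5% of all genes tested fell. The same number, 9, had ABT-737 below vehicle without overlap, where 6.63% of all genes tested did. The median log2 fold change was −0.82, at −1.07, −0.74 and −0.74 within numbers 3, 4 and 5, and it ran from −1.27 to −0.50 as libraries were left out. Birc5, the survivin gene, was at 29.5, 27.02 and 36.3 CPM with vehicle and 6.44, 7.38 and 17.001 CPM with ABT-737 and fell by 1.62 ± 0.40 (adjusted p = 0.0273). The mitotic kinases Aurkb and Cdk1 (log2 fold changes −1.77 ± 0.47 and −0.96 ± 0.26), the cyclin Ccnb2 (−1.198 ± 0.32) and Mcm5 of the replicative helicase (−1.11 ± 0.26) fell too. Without the block 15 were lower and 1 higher at an unadjusted p under 0.05, and in the 6 old lungs alone 0 passed. The 1 higher gene was the proliferation marker Mki67, with a log2 fold change of 1.79 without the block and 1.04 with it (adjusted p = 0.361 with the block), and the other 4 with a positive value were Cenpe, Cenpf, Kif20a and Prc1.

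Cytosolic ribosomal protein genes had a negative median, but not in number 4. Of 63 tested, 6 fell and 0 rose, 60 had a negative log2 fold change, and the median was −0.66. Within numbers 3, 4 and 5 it was −0.75, 0.04 and −1.12, and without vehicle replicate 5 it was −0.23. Rpl24 was at 32.2, 24.9 and 41.9 CPM with vehicle and 12.9, 9.48 and 14.8 CPM with ABT-737 and fell by 1.41 ± 0.30. Rps19 was at 788, 48.5 and 46.01 CPM in the vehicle lungs and 34.1, 32.7 and 17.9 CPM in the ABT-737 lungs, so that its call (adjusted p = 0.027) rested on vehicle replicate 3. These transcripts are short, and how length moved with the treatment is given next.

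Genes that rose had longer transcripts than genes that fell. The median transcript length in the count table was 4979 bases for the 456 genes that rose, 2118 bases for the 418 that fell and 2816 bases for all genes tested. When the genes were divided by length into 5 classes of equal size, the median log2 fold change went from −0.14 in the shortest class to 0.38 in the longest. The longest class held 240 genes that rose and 31 that fell. The pairs did not share this pattern. In the longest class the median difference was 0.44 in number 3, −0.13 in number 4 and 0.66 in number 5. By library, the log2 level of the longest class relative to the shortest was 0.42 and 0.53 in ABT-737 replicates 3 and 5 and −0.48 in ABT-737 replicate 4, with −0.44 to −0.22 in the vehicle lungs and −0.04 to 0.08 in the young lungs. The part of transcript length in the rises described next was not tested.

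**Figure D5:**
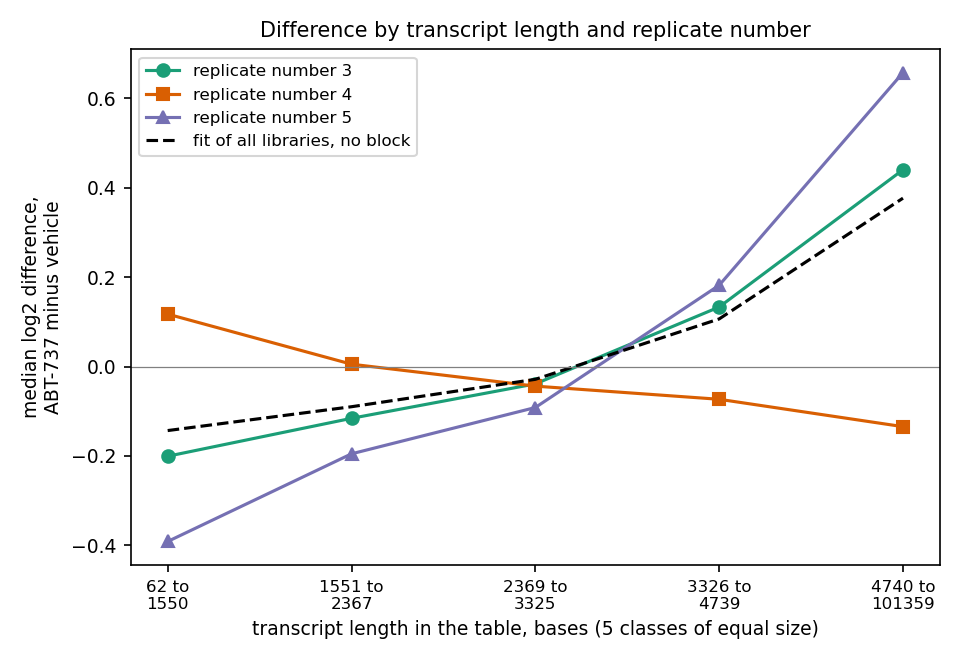
Median log2 difference between ABT-737 and vehicle (vertical axis) in 5 length classes of the tested genes (horizontal axis, transcript length in bases), within each replicate number and in the fit without the block. Numbers 3 and 5 climb from −0.20 and −0.39 in the shortest class to 0.44 and 0.66 in the longest, while number 4 goes from 0.12 to −0.13.

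Alveolar type 1 cell genes, of the flat cells through which gas is exchanged, were higher. Of 23 tested, 7 rose and 0 fell, against 3.82% of all genes tested that rose, and 22 had a positive log2 fold change, where 52.8% of all genes tested did. The median was 0.68, and 0.46, 0.35 and 1.62 within numbers 3, 4 and 5. It was 0.36 without vehicle replicate 5, where these genes were low, and 1.06 without vehicle replicate 3. In the 6 old lungs alone 0 of the 23 passed, and without the block 8 were higher at an unadjusted p under 0.05. Clic5, an actin-bound chloride channel protein, was at 409, 419.9 and 152 CPM with vehicle and 936, 615 and 616 CPM with ABT-737. It rose by 1.25 ± 0.28 (adjusted p = 0.0183) without overlap, as ABT-737 lay above vehicle in 4 of the 23 genes and in 5.18% of all genes tested. Rtkn2 was at 65.7, 69.05 and 10.1 CPM and 285, 102 and 173 CPM and rose by 2.17 ± 0.46, also without overlap. The anchoring protein Akap5 rose by 1.98 ± 0.45 and podoplanin (Pdpn) by 1.09 ± 0.30. In the type 1 markers Ager, Hopx and Aqp5 the groups overlapped. Ager was at 3007, 2466 and 1107 CPM with vehicle and 3061, 4686 and 2006 CPM with ABT-737. Hopx was at 1223, 398 and 516 CPM and 734, 488 and 919 CPM, and Aqp5 at 203, 113 and 94.6 CPM and 167, 174 and 82.8 CPM. Hopx was lower with ABT-737 within number 3, and Aqp5 within numbers 3 and 5.

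Type 2 and airway secretory cell genes gave no calls. For 24 type 2 cell genes the median log2 fold change was 0.21 and for 22 club and secretory cell genes it was 0.36, with 0 called in either direction. At an unadjusted p under 0.05 without the block 2 genes of each list were higher and 0 lower. Cilium genes had a median of 0.65, with 6 of 30 that rose and 0 that fell, medians of 0.57, 0.08 and 1.21 within numbers 3, 4 and 5, and a median of 0.40 without vehicle replicate 5. The axonemal dynein chain Dnah5 was at 10.1, 3.002 and 2.62 CPM with vehicle, 37.4, 7.38 and 54.6 CPM with ABT-737 and 4.905 to 7.798 CPM in the young lungs, and rose by 2.66 ± 0.47 (adjusted p = 0.00646). Its high values were in ABT-737 replicates 3 and 5. Ccdc40, needed for the ruler of the axoneme, rose by 1.41 ± 0.28 without overlap.

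Smooth muscle genes of the vessel and airway walls were higher. All 23 smooth muscle and pericyte genes tested had a positive log2 fold change, 5 rose, and the median was 0.64, with 0.71, 0.46 and 1.27 within numbers 3, 4 and 5. Myh11, the smooth muscle myosin, stood at 75.8, 60.9 and 36.7 CPM with vehicle and 240.2, 112 and 141 CPM with ABT-737, the young lungs being at 108 to 159.9 CPM. The groups did not overlap, and Myh11 rose by 1.5004 ± 0.26 (adjusted p = 0.00599). The pericyte proteoglycan Cspg4 was at 10.7, 10.7 and 5.24 CPM and 36.1, 22.1 and 19.2 CPM and rose by 1.55 ± 0.30, also without overlap. Without vehicle replicate 5 the median of the list was 0.35. In the 6 old lungs alone 0 genes passed in this list, and the same holds for the cilium, endothelial, collagen, other matrix, fibroblast and lung development lists.

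Of 36 endothelial genes 5 rose and 0 fell. The median log2 fold change was 0.40, it was −0.23 within number 4, and it was 0.05 without vehicle replicate 5. Kdr, the receptor for vascular endothelial growth factor, was at 34.9, 20.2 and 9.35 CPM with vehicle and 152, 28.5 and 131 CPM with ABT-737 and rose by 2.19 ± 0.44 (adjusted p = 0.0108). Bmpr2, the BMP receptor whose loss causes pulmonary hypertension, was at 45.6, 41.2 and 13.5 CPM and 334, 23.2 and 246 CPM and rose by 2.299 ± 0.64. In number 4 Bmpr2 was lower with ABT-737. Calcrl, the receptor for adrenomedullin, rose by 0.96 ± 0.24.

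Matrix genes were modestly higher. Of 21 collagens 20 had a positive log2 fold change, 2 rose, and the median was 0.53. Of 34 genes of elastic fibres and other matrix 4 rose, 0 fell, and the median was 0.50, with 0.46, 0.59 and 0.69 within numbers 3, 4 and 5. Without ABT-737 replicate 4 the medians of these lists were 0.28 and 0.31. Col4a4, a chain of the alveolar basement membrane, was at 53.7, 71.2 and 18.7 CPM with vehicle and 195, 73.8 and 113 CPM with ABT-737 and rose by 1.51 ± 0.38 without overlap. Lama2, a laminin chain, rose by 1.34 ± 0.30. Among fibroblast genes 2 of 26 rose, Inmt and the very long Macf1, and Ly6a fell. Inmt, a methyltransferase of lung fibroblasts, was at 2426, 3038 and 778 CPM with vehicle, 4287, 4109 and 2043 CPM with ABT-737 and 7201 to 8958 CPM in the young lungs. It rose by 0.88 ± 0.25 (adjusted p = 0.0453), and every old lung was below every young one.

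Of 48 genes of lung development 7 rose and 0 fell. Their median log2 fold change was 0.52, with 0.50, −0.07 and 1.04 within numbers 3, 4 and 5, and it was 0.36 without vehicle replicate 5. The transcription factors Gata6 and Tbx5 rose by 1.22 ± 0.29 and 1.18 ± 0.29, each without overlap. Hhip, which binds hedgehog ligands, was at 17.4, 32.6 and 7.48 CPM with vehicle and 40.6, 60.1 and 18.8 CPM with ABT-737. It rose by 1.12 ± 0.26 (adjusted p = 0.0217) and stayed below the young lungs, which had 122 to 174 CPM. The mesothelial uroplakin Upk3b was at 3.35, 6.43 and 1.87 CPM and 45.7, 11.6 and 15.2 CPM and rose by 2.48 ± 0.57.

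Fat cell genes were high in a single library. Of 15 adipocyte genes 7 rose and 0 fell, with a median log2 fold change of 2.91, but the median was 0.21 and 1.25 in numbers 3 and 5 and 4.33 in number 4. Without ABT-737 replicate 4 it was 0.22. Retn, the resistin gene, was at 24.1, 15.01 and 1.12 CPM with vehicle and 30.3, 1181 and 6.71 CPM with ABT-737, and Pck1, of glyceroneogenesis, at 31.5, 33.02 and 0.374 CPM and 36.7, 1799.8 and 8.05 CPM. Both rose, by 3.38 ± 0.96 and 3.35 ± 0.89, as did the carbonic anhydrase Car3 by 3.66 ± 0.82. Brown fat genes, a list added after the values had been seen, behaved likewise. Their summed level was 616 CPM in ABT-737 replicate 4 and 13.1 to 85.0 CPM in the other old lungs. Cox8b, a respiratory subunit of brown fat and muscle, was at 2.01, 8.58 and 2.24 CPM and 10.9, 191 and 6.26 CPM, and rose by 3.397 ± 0.58. Most reads of Cyp2e1, of the mast cell protease Mcpt4 and of the lectin Fcna, each among the 15 highest log2 fold changes chosen in that way, were in ABT-737 replicate 4 as well, at 793, 187 and 366 CPM. What fat tissue in that piece of lung contributed was not tested.

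Heart muscle and blood cell genes differed between single lungs. The 12 cardiac genes tested had a median log2 fold change of 0.83, and 2 rose, Myh7 by 1.85 ± 0.41 and Ryr2, the calcium release channel, by 2.302 ± 0.45. Their summed level was 829, 1200.4 and 89.4 CPM with vehicle and 1903, 1212 and 749 CPM with ABT-737, so vehicle replicate 5 was the low one. Erythroid genes, at 0 of 12 called, summed to 3614 to 25271.5 CPM with vehicle and 6803 to 69689 CPM with ABT-737. All 15 platelet genes tested had a positive log2 fold change and a median of 0.61, or 0.19 without vehicle replicate 5. Among them Nrgn rose by 1.51 ± 0.24 (adjusted p = 0.00524), from 172, 129.9 and 32.2 CPM to 433, 289 and 137 CPM. The chemokine Pf4, which defines platelets, was at 152, 97.4 and 32.2 CPM and 148, 181 and 99.8 CPM and did not pass (adjusted p = 0.0862).

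Single genes with the strongest statistics without the block were of other kinds. Ttc21a, a cilium transport gene, had the smallest p there. It was at 4.02, 3.43 and 3.74 CPM with vehicle and 26.4, 8.43 and 27.3 CPM with ABT-737, and with the block it rose by 2.39 ± 0.40 (adjusted p = 0.00524, and 0.0454 in the 6 old lungs alone). The linker histone gene Hist1h1e, whose main transcript has no poly(A) tail, was at 5.37, 12.01 and 8.23 CPM with vehicle and 334, 7.38 and 876 CPM with ABT-737, high in replicates 3 and 5 and not in 4. It rose by 4.61 ± 0.97 (adjusted p = 0.0135), and these 2 lungs are the ones with more reads on long transcripts. Of 4 replication-dependent histone genes tested, a list added after the values had been seen, it was the 1 called.

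The protocadherin alpha genes on chromosome 18 share their last exons, and 12 of them had identical counts in all libraries. Together with Pcdha9 and Pcdhac2, which differed from these by 1 read in single libraries, they made up 14 of the 20 genes that rose in the 6 old lungs alone, and they are better read as 1 measurement. Pcdha5 stood for them at 3.35, 3.86 and 1.12 CPM with vehicle and 32.8, 9.48 and 15.7 CPM with ABT-737, without overlap, and rose by 2.73 ± 0.46 (adjusted p = 0.00524, and 0.0423 in the 6 old lungs alone). The remaining 6 of the 20 included Igfbp5, Ttc21a and Cox8b. Lmod2, a muscle actin nucleator, was read 0, 2 and 0 times with vehicle and 14, 1 and 19 times with ABT-737, in the order of the numbers. Its mean was at least 4.2-fold higher with ABT-737, which rests on replicates 3 and 5.

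Whether the response of the lung differed from that of kidney and liver was tested as the difference of the effects, without the block. Against kidney 0 of 13020 genes passed (smallest adjusted p = 0.375, and 1265 genes at an unadjusted p under 0.05, edgeR's quasi-likelihood test). Against liver 5 of 11067 passed (0.0452%). Over the genes tested in both lung and kidney, guanylate-binding genes had a median log2 fold change of −1.13 in lung and −1.89 in kidney, MHC class I genes −1.12 and −1.54, and Fc receptors and adaptors −1.15 and −1.22. Collagens, at 0.46 in lung and −0.31 in kidney, and genes of elastic fibres and other matrix, at 0.50 and −0.42, had medians of opposite sign, with 0 genes in either list whose difference passed. The mice behind the 3 tissues may be the same, which the labels do not say.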

How the data were processed

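Whole lungs were profiled by a bulk form of MARS-seq, which counts the 3′ ends of polyadenylated transcripts. The authors deposited raw counts per RefSeq gene, without normalization. The submitters' processing notes name bcl2fastq, HISAT 0.1.5, HOMER and mm10, while collapsing by molecular identifier and the use of strand are not given in the sources used here, so reads of overlapping genes cannot be told apart. Groups were taken from the titles, ages and treatments.

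The counts of all 10 lungs were filtered by edgeR's filterByExpr, scaled by TMM and fitted with the quasi-likelihood model, without and with the replicate number as a block, the young lungs keeping a mean of their own. P-values were adjusted by Benjamini-Hochberg over 11949 genes and called under 0.05, with edgeR 4.0.16 under R 4.3.3. Normalised CPM were computed from the counts with the scaled library sizes. The labels do not say that a number marks 1 cage, day or batch or which mouse gave which library. The pairing rests on the correlations of same-numbered lungs (r across genes = 0.18, 0.30 and 0.43 for numbers 3, 4 and 5, each above 0.1). Of the unlike numbers, vehicle replicate 4 with ABT-737 replicate 3 (r = 0.30) and vehicle replicate 3 with ABT-737 replicate 5 (r = 0.13) were above 0.1 too. The others were negative. The p-values measure the spread between these libraries that the fitted means leave. With the block, that spread includes the young lungs and leaves out what lungs of the same number share. The biological coefficient of variation was 23.5% in that fit and 30.6% with the block in the 6 old lungs alone. No pair of libraries of the same group was alike to within sampling noise, and pairs across groups were not examined.

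Genes were named by a rule. It took the 15 highest and the 15 lowest log2 fold changes among genes called with the block that had the same sign in every number, the 10 smallest p-values without the block, the genes that the study names, and members of lists. The members, lists and tests were chosen with earlier results of these data known, and lists were described by counts and medians, with no test of a list. Some genes are not reported here by name. Alternatives were DESeq2 1.42.0 and its size factors, other filters, voom of limma 3.58.1 with quality weights, robust moderation, an adjusted p under 0.1, the 6 old lungs alone, the block off or on, and each library or number left out.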

Additional observations from a re-analysis of the deposited data

Results flagged for a closer look

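Of 138 genes examined for a young lung far from the others, 9 had one, where chance marks about 1 group in 20. In replicate 2, Cd247 was low at 5.56 CPM against 7.80 to 8.14 CPM and Fcgr4 low at 8.34 CPM against 10.3 to 10.4 CPM, while Cxcl9 was high at 3.48 CPM against 1.96 to 2.17 CPM and Saa3 high at 16.0 CPM against 7.85 to 9.23 CPM. In replicate 4, Macf1 was low at 436 CPM against 519 to 532 CPM, while Cd72 was high at 7.28 CPM against 3.26 to 3.48 CPM and Ccl2 reached 0.52 CPM, a level under that of 3 counts, with the others at 0. Cdkn1c was high in replicate 3, at 40.2 CPM against 27.1 to 29.1 CPM, and Clic5 low in replicate 1, at 543 CPM against 721 to 747 CPM.

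The effect of ABT-737 differed between lung and liver for 5 genes by edgeR's quasi-likelihood test of the difference (Benjamini-Hochberg adjusted), all without the block. For Pcolce, an enhancer of procollagen processing, the log2 fold change was 0.67 in lung and −3.82 in liver, a difference of 4.52 (adjusted p = 0.0143). For Basp1 it was 0.08 in lung and −3.78 in liver, a difference of 3.95, and for the integrin Itga9 0.31 in lung and −2.47 in liver, a difference of 2.83 (adjusted p = 0.0444 for both). The chemokine Cxcl14 differed by 4.73 and the replication factor Mcm10 by −3.30 (adjusted p = 0.0444 and 0.0377). Cxcl14 was not tested in liver alone, nor Mcm10 in lung alone, for want of reads. In 4 of the 5 genes the lung effect was the higher one, and the number of genes called ran from 1 to 88 as single libraries were left out.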

How the results depend on the processing

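The lung result depended on whether the replicate number was a term and on single pairs. Without the replicate block 0 genes were called, and with it 874. Numbers taken as written over all 3 groups, the young lungs included, gave 99. Without the block, DESeq2 called 301 genes, dropping the filter 359, and an adjusted p under 0.10 18. Those 18 include protocadherin alpha genes with identical counts. With 1 gene kept of each such set, the smallest adjusted p of edgeR's quasi-likelihood test was 0.134, which is not under 0.10. Also without the block, edgeR with DESeq2's size factors, the stricter filter, the 6 old lungs alone, robust moderation and limma's voom each gave 0. Leaving out single libraries gave 0 to 676, 676 where ABT-737 replicate 4 was left out and 122 where replicate 5 of that group was. With the block, dropping the filter gave 1376 genes, at least 10 counts in every library 437, the 6 old lungs alone 72, and an adjusted p under 0.10 1584. DESeq2 gave 913 and voom 663. Leaving out 1 number gave 133 to 2384, and in the 6 old lungs alone 7 without replicate 3, 963 without replicate 4 and 3 without replicate 5. Not every library correlated best with its own number: vehicle replicate 4 did so with ABT-737 replicate 3 (r = 0.303, against 0.296 with its own).

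Of 134 named genes called with the block, 120 were also called by DESeq2, 120 by voom, 39 of 130 in the 6 old lungs alone and 0 without the block, and none of these alternatives reversed one. Fcna had a log2 fold change from −0.40 without ABT-737 replicate 4 to 5.15 as libraries were left out. Against kidney, voom also gave 0 genes, a block within tissue gave 11 genes in place of 0, and leaving out libraries 0 to 5. Against liver, the block gave 47 in place of 5, voom 1, and leaving out libraries 1 to 88.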
